A study of Mus musculus with 4 samples.

Results

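Metallothioneins and zinc transporters were examined as a group of 7 genes, taken by symbol from the 24421 genes of a liver RNA-seq table: the metallothioneins Mt1 and Mt2, their transcription factor Mtf1, the exporters Slc30a1 and Slc30a10, and the importers Slc39a4 and Slc39a14. All 7 symbols were in the table, and all 7 had a mean of at least 1 FPKM (fragments per kilobase of gene, scaled to the mapped fragments of the library), the level asked of a gene to be tested. The 4 liver samples came from hepatectomized mice, 2 given fibrin gel alone (control) and 2 given gel that carried ADSC, the usual abbreviation of adipose-derived stem cells (gelADSC). Hepatectomy and fibrin gel are thus common to both groups, and no liver without surgery, without gel, or with ADSC but no gel was analysed here. The sources used here do not give the extent of the resection, the time after it, the strain, age and sex of the mice, the source of the ADSC, or whether animals were pooled. Libraries are called by the number in their column name, 1 and 3 for control and 2 and 3 for gelADSC.

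Metallothioneins are small cysteine-rich proteins that bind zinc, copper and cadmium, and the liver is a main site of their synthesis. Free zinc activates MTF1, which binds metal response elements (MREs) in the promoters of the metallothionein genes and of Slc30a1, while glucocorticoids and IL-6 signalling through STAT3 are further known inducers of Mt1 and Mt2. Proteins of the SLC30 family (ZnT) move zinc out of the cytosol, and those of the SLC39 family (ZIP) move it in. ZIP14, the product of Slc39a14, carries zinc, manganese and iron into hepatocytes, ZIP4, the product of Slc39a4, is best known as the zinc uptake protein of the small intestine, and ZnT10, the product of Slc30a10, exports manganese.

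The promoter sequences below are shown because MTF1 acts through MREs and because the genes that carry them did not change alike. RefSeq promoter windows (GRCm38.p6) run from 250 bases before to 50 after the annotated start and were available for 5 of the 7 genes, Mt1, Mt2, Mtf1, Slc30a1 and Slc30a10, but not for Slc39a4 and Slc39a14. The 250 bases before the start are printed 5′ to 3′ on the plus strand, which is the strand of each gene, with matches to the MRE core in capitals. The core was searched on both strands in its 2 forms, TGCACNC and also TGCGCNC, where N is any base and matches may overlap.
Mt1, chr8:94178839-94179088: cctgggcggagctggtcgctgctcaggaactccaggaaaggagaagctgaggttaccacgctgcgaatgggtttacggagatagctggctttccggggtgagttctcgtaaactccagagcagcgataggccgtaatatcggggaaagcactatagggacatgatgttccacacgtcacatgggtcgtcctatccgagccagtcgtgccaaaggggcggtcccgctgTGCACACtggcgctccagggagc
Mt2, chr8:94172368-94172617: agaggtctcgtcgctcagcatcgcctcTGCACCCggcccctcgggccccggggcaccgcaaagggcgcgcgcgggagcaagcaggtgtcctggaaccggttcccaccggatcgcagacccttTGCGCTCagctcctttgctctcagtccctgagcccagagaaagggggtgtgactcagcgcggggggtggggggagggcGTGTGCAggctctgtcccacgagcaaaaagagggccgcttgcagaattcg
Slc30a1, chr1:191906531-191906780: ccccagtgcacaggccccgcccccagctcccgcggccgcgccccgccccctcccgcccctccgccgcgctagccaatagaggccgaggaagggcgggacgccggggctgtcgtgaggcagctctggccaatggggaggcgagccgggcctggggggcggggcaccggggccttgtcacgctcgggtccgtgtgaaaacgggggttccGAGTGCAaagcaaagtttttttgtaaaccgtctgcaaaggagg
Slc30a10, chr1:185454598-185454847: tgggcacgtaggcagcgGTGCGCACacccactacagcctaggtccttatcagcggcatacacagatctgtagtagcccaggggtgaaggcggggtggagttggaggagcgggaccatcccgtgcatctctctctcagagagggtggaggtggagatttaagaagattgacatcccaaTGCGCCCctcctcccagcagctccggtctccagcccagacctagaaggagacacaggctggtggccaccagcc

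The whole windows held 4 core matches in Mt2, 3 in Mt1, 3 in Slc30a10, 2 in Slc30a1 and 0 in Mtf1. In Slc30a10 a pair of the matches overlaps on opposite strands at positions -233 and -232, counted from the annotated start. Of 32851 windows of this length, 25.7% held at least 1 match, 7.11% at least 2, 1.97% at least 3 and 0.517% at least 4. In Mt1 the matches began at positions -23, 3 and 21, and the stretch from position 2 to 28 (chr8:94179090-94179116) reads cTGCACTCcgcccgaaaagTGCGCTCg with both of its matches in capitals. The start used for these windows is not the only one annotated. GENCODE M21 places starts of Mt1 7 bases upstream and 122 and 152 bases downstream of it. For Mt2 it places them 46 and 242 bases downstream. Bases beyond the windows were not searched. The bases directly before the Mt1 starts 122 and 152 bases downstream thus lie outside its window. Motif counts and absences in Mt1 do not describe them. The same holds for the Mt2 start 242 bases downstream. The antioxidant response element, searched as TGACNNNGC on both strands, had 1 match in Mt2 (positions -79 to -71) and 1 in Slc30a1, against 12.4% of all windows. Neither the E-box CACGTG (7.15% of all windows) nor the STAT site TTCNNNGAA (8.3%) was found in any of the 5 windows. A match is a run of letters and no measured binding, and no binding data were used here.

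**Figure D1:**
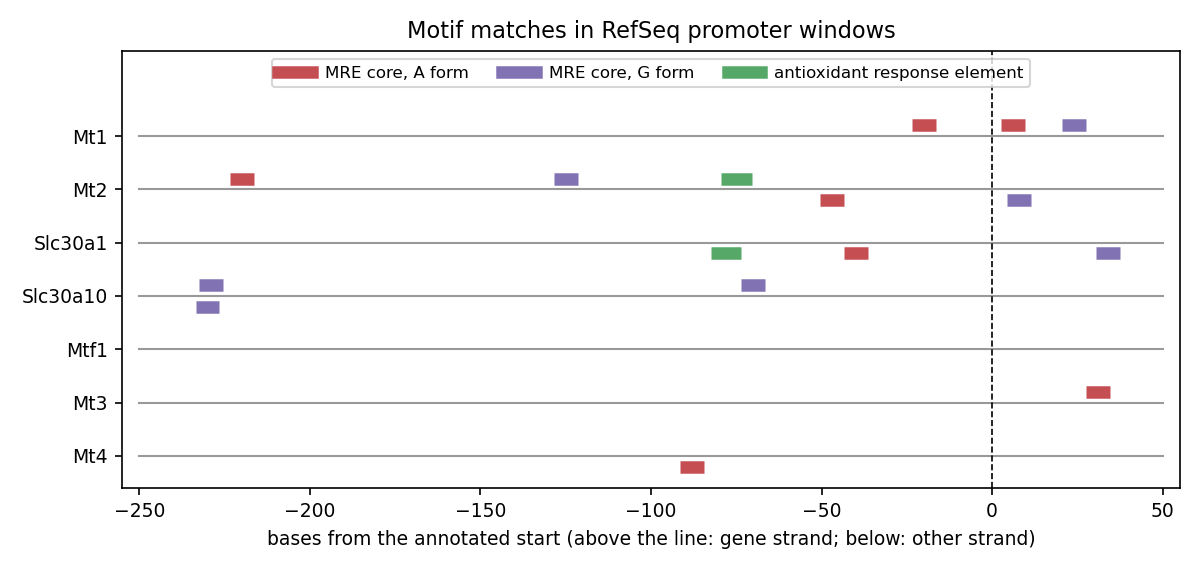
Motif matches in the RefSeq promoter windows of 5 listed genes and of Mt3 and Mt4, by distance in bases from the annotated start (x axis). Bars above a gene's line lie on the gene's strand and bars below it on the other strand, with 4 MRE core matches in Mt2 and 3 in Mt1.

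Both metallothioneins fell in gelADSC, by about the same factor, and so did the importer Slc39a4. The exporters Slc30a1 and Slc30a10, the importer Slc39a14 and the factor Mtf1 did not pass the test. Thus 3 of the 7 genes were called lower and 0 higher at an adjusted p under 0.05 (limma, adjusted over all 11070 genes tested), where 17.5% of all tested genes were called lower and 6.92% higher. At an unadjusted p under 0.05 (limma) the number was also 3, where 4418 of all 11070 tested genes passed. Both gelADSC libraries read below both controls for 4 of the 7 genes, Mt1, Mt2, Slc39a4 and Slc39a14, and for 50.5% of all tested genes. Both read above for 0 of the 7, against 19.2% of all tested genes. The median log2 change of the 7 genes was -0.42, and that of all tested genes was -0.25, so changes are also given relative to the latter. Each change is the gelADSC mean minus the control mean of log2(FPKM + 1), which understates the change of low genes. An exact permutation test of 2 against 2 libraries cannot go below p = 0.333, so the tests rest on a spread estimated across genes.

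Mt1 read 2477 and 1975 FPKM in control libraries 1 and 3, and 854 and 763 FPKM in gelADSC libraries 2 and 3. Both gelADSC libraries lay far below both controls, and the 2 libraries within each group were close to each other. The means were 2226 ± 355 and 808 ± 64.4 FPKM (SD, n = 2 each), a 2.75-fold lower level in gelADSC. The log2 change was -1.45 (SE 0.23, limma adjusted p = 0.00384), or -1.21 relative to the median gene. Mt2 read 2934 and 1948 FPKM in control livers, against 816 and 757 FPKM in gelADSC. The groups were again apart, while control library 1 stood above control library 3. The means were 2441 ± 697 and 787 ± 42.0 FPKM (SD, n = 2 each), 3.10-fold lower, with a log2 change of -1.60 (SE 0.26, limma adjusted p = 0.0041), or -1.36 relative to the median gene. In liver RNA of this kind, fewer cells of a type and less RNA per cell cannot be told apart.

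Mt1 and Mt2 were among the most abundant transcripts in every library. By FPKM, Mt1 ranked 25 and 29 of 24421 genes in the controls and 76 and 77 in gelADSC, and Mt2 ranked 20 and 30 against 80 and 80. Together they made up 1.05% and 0.765% of all FPKM in the control libraries and 0.323% and 0.307% in the gelADSC libraries. The ratio of Mt1 to Mt2 was 0.844 and 1.01 in control libraries 1 and 3, and 1.05 and 1.01 in gelADSC libraries 2 and 3. This ratio was close to 1 in 3 libraries and lower in control library 1, so the pair changed nearly in step. The calls of both genes were lost without control library 1 (adjusted p = 0.0617 for Mt1 and 0.0572 for Mt2) and with no filter on low genes (0.0529 and 0.0568), although the log2 change stayed between -1.65 and -1.21 for Mt1 and between -1.90 and -1.31 for Mt2 over 11 alternatives. Over the alternatives that kept all 4 libraries the limma adjusted p ranged from 0.00143 to 0.0529 for Mt1. For Mt2 it ranged from 0.00139 to 0.0568.

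**Figure D2:**
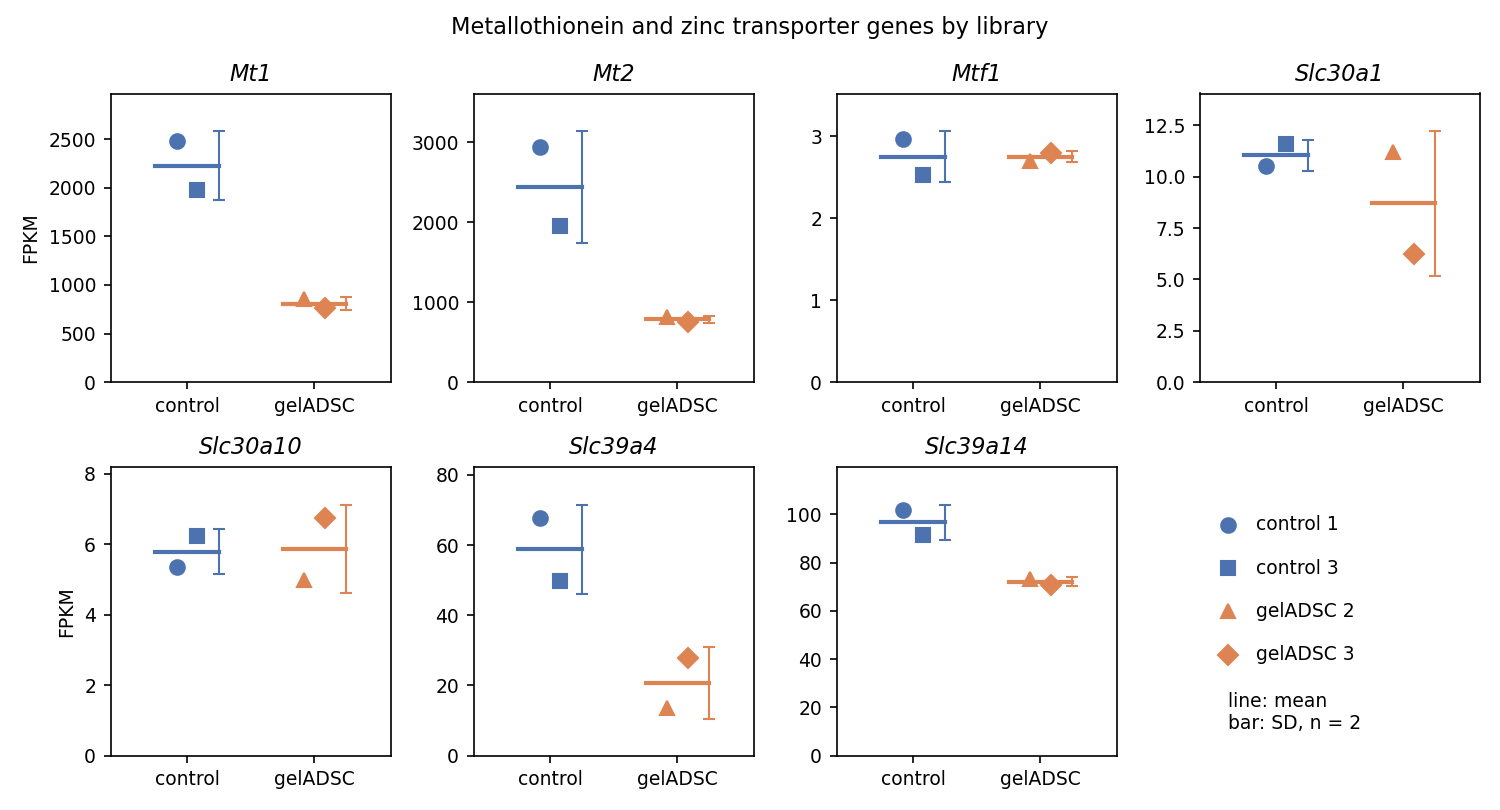
FPKM of the 7 listed genes (y axes, each from 0) in control libraries 1 and 3 and gelADSC libraries 2 and 3, with the group mean as a line and the SD (n = 2) as a bar. The groups are apart for Mt1, Mt2, Slc39a4 and Slc39a14 and overlap for Mtf1, Slc30a1 and Slc30a10.

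The mouse metallothionein genes lie in a row in the order Mt4, Mt3, Mt2 and Mt1, and the remaining pair, better known from stratified epithelium (Mt4) and brain (Mt3), was also read in the control livers. Mt3 read 4.38 and 2.46 FPKM in the controls and Mt4 3.34 and 3.81 FPKM, and both were listed at 0 in both gelADSC libraries. These levels are far below those of Mt1 and Mt2 in the same libraries. For Mt4, which has a single annotated transcript, the control values correspond to roughly 26.4 and 27.4 reads. Both were called lower (limma adjusted p = 0.00141 for Mt3 and 0.000535 for Mt4), but they passed the filter through the control libraries alone, and no fold is given. An entry of 0 in this table need not mean absent RNA. Sco2, a mitochondrial copper chaperone that cells in general use, was listed at 0 in all 4 libraries. So were the globin genes Hbb-bs, Hbb-bt, Hba-a1 and Hba-a2. Mt3 and Mt4 differ from these in having control values, and the cause of their 0 entries in gelADSC was not tested.

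Mtf1, the metal-sensing transcription factor, read 2.97 and 2.53 FPKM in control livers, against 2.70 and 2.80 FPKM in gelADSC. Both gelADSC values lay between the control values. The log2 change was 0.00 (95% interval -0.48 to 0.48, limma adjusted p = 0.998), or 0.25 relative to the median gene. The interval leaves room for changes of Mtf1 in either direction, but not for one as large as those estimated for Mt1 and Mt2. Mtf1 overlaps a coding gene on the other strand, 1110065P20Rik, which read 23.2 and 19.6 FPKM in control livers, against 8.87 and 12.8 FPKM in gelADSC. The library kit keeps the strand, but no source used here says whether the counting used it, so the part of such reads in the Mtf1 value was not tested.

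Among exporters, Slc30a1 encodes ZnT1, which moves zinc across the plasma membrane, and is with Mt1 and Mt2 the best known MTF1 target. It read 10.5 and 11.6 FPKM in control livers, against 11.2 and 6.22 FPKM in gelADSC. The groups overlapped, since gelADSC library 2 lay between the controls and library 3 well below them. The log2 change was -0.36 (95% interval -0.97 to 0.25, limma adjusted p = 0.342), or -0.11 relative to the median gene. Slc30a10 read 5.34 and 6.24 FPKM in control livers, against 4.98 and 6.75 FPKM in gelADSC. Here the gelADSC libraries held both the lowest and the highest value. The log2 change was 0.01 (95% interval -0.50 to 0.51, limma adjusted p = 0.983). Over its single annotated transcript these values of Slc30a10 correspond to roughly 619 to 792 reads per library. Mt2, Slc30a1 and Slc30a10 each overlap an annotated noncoding gene on the other strand. Those over Slc30a1 and Slc30a10 read at most 0.152 and 0.727 FPKM, and the one over Mt2, Gm45774, has no row of its own in the table. Of the 50-base stretches in Mt2 transcripts, 45.8% also occur in Gm45774, read on either strand. The like shares were 8.01% for Slc30a1 and 8.36% for Slc30a10. The part of reads from Gm45774 in the Mt2 value was not tested.

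Slc39a4 read 67.8 and 49.9 FPKM in control livers, against 13.5 and 27.9 FPKM in gelADSC libraries 2 and 3. Both gelADSC values lay below both controls, with library 2 lower than library 3 by 0.99 on the log2 scale. The means were 58.9 ± 12.7 and 20.7 ± 10.2 FPKM (SD, n = 2 each), 2.85-fold lower in gelADSC. The log2 change was -1.53 (SE 0.32, limma adjusted p = 0.0116), or -1.28 relative to the median gene. This call was less firm than those of the metallothioneins. It was lost under quantile normalization (limma adjusted p = 0.0622), median ratio scaling (0.0551) and no filter (0.0761). It was also lost on leaving out control library 1 or 3. Over the alternatives that kept all 4 libraries the limma adjusted p ranged from 0.00417 to 0.0761. Fits that leave a single library in a group are read for their log2 change only. The direction was the same in all 11 alternatives, with log2 changes from -2.03 to -1.04.

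Slc39a4 is typical of enterocytes, so markers of that cell type were read beside it. The summed level of the 8 markers was 168 and 169 FPKM in control livers, against 49.7 and 83.1 FPKM in gelADSC. Of the 2 that were tested, Fabp2, a fatty acid binding protein, was called lower, at 164 and 162 FPKM against 49.6 and 83.0 FPKM. Nearly all of the summed level in each library was Fabp2. The other, Krt20, a keratin, read 3.69 and 6.52 FPKM in control livers, against 0 and 0.0257 FPKM in gelADSC. Krt20 passed the filter through the control libraries alone and is given for its values only. The defining markers Sis, Cdx1 and Cdx2 were listed at 0 in all 4 libraries, and Lct, Vil1 and Alpi did not exceed 0.301 FPKM in any. Of 8 markers of pancreatic acinar cells, in which zinc transporters are also prominent, Cpa1, Cpb1, Pnlip and Amy2a5 were listed at 0 throughout and only Cela1 was high enough to be tested (4.79 to 7.58 FPKM over the 4 libraries).

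Slc39a14 read 102 and 91.6 FPKM in control livers, against 73.3 and 70.8 FPKM in gelADSC. Both gelADSC libraries lay below both controls, as they did for 50.5% of all tested genes. The means were 96.7 ± 7.30 and 72.04 ± 1.80 FPKM (SD, n = 2 each), with a log2 change of -0.42 (95% interval -0.84 to 0.00, limma adjusted p = 0.126). Relative to the median gene the change was -0.17. It passed the threshold under 0 of 11 alternatives, with adjusted p between 0.112 and 0.396.

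In the control livers the order of levels per gene length, from high to low, was Mt2 and Mt1, then Slc39a14, Slc39a4, Slc30a1, Slc30a10 and Mtf1. The control ranges of neighbours were apart in this order, except for Mt2 and Mt1, which did not differ beyond their spread. In gelADSC the order was the same apart from Mt1 and Mt2, which did not differ beyond their spread, and the ranges of Slc30a1 and Slc30a10 overlapped. The ratio of Slc39a14 to Slc39a4 was 1.502 and 1.83 in the controls and 5.43 and 2.54 in gelADSC, so the gap between the importers was wider in both gelADSC libraries.

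The rest of both transporter families gave the setting of these genes. Of 14 Slc39a importers 12 were tested, and the median of their log2 changes was -0.55 (-0.30 relative to all tested genes). Of these 12, 3 were called lower and 0 higher, beside 17.5% and 6.92% of all tested genes. Beside Slc39a4 the called importers were Slc39a1, a plasma membrane importer, which fell from 89.5 ± 17.3 to 51.9 ± 1.44 FPKM (SD, n = 2 each, log2 change -0.76), and Slc39a13, an importer of intracellular vesicles, which fell from 12.03 ± 5.31 to 5.25 ± 0.709 FPKM (SD, n = 2 each, log2 change -1.002). Their limma adjusted p values were 0.0294 and 0.0373, and those of each were above 0.05 with median ratio scaling (0.0581 and 0.0784) and with quantile normalization (0.0791 and 0.0827). Slc39a7, which releases zinc from the endoplasmic reticulum, read 101 and 72.4 FPKM in control livers, against 49.8 and 57.9 FPKM in gelADSC (adjusted p = 0.0589). Slc39a8, the close relative of Slc39a14, read 4.31 and 4.68 against 4.64 and 8.84 FPKM (adjusted p = 0.269), and with Slc39a5 was 1 of 2 tested importers with a positive log2 change (0.44 and 0.46).

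Of 10 Slc30a exporters 7 were tested, of which 2 were called lower and 0 higher, beside 17.5% and 6.92% of all tested genes. The median of their log2 changes was -0.36 (-0.11 relative to all tested genes). Slc30a7, which loads zinc into the Golgi, fell from 7.97 ± 2.07 to 3.54 ± 0.728 FPKM (SD, n = 2 each, log2 change -0.97, limma adjusted p = 0.023). Slc30a9, of mitochondria, fell from 28.1 ± 2.03 to 15.7 ± 1.01 FPKM (SD, n = 2 each, log2 change -0.80, limma adjusted p = 0.018). The other 5 tested exporters were not called, with Slc30a4 at a log2 change of -0.66 (limma adjusted p = 0.125), Slc30a5 at -0.33 (0.222) and Slc30a6 at -0.26 (0.359) beside Slc30a1 and Slc30a10. Of the 19 transporters tested, 5 were thus called lower, beside 17.5% of all tested genes. At an unadjusted p under 0.05 (limma) 8 transporters passed, beside 4418 of all 11070 tested genes. The count of 5 fell to 0 without control library 1, where the adjusted p of Slc30a7, Slc30a9, Slc39a1 and Slc39a13 lay between 0.106 and 0.196 and 5 transporters passed unadjusted. It was 1 without gelADSC library 2, where Slc39a4 alone was called, 1 with quantile normalization or no filter, and 2 with median ratio scaling.

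**Figure D3:**
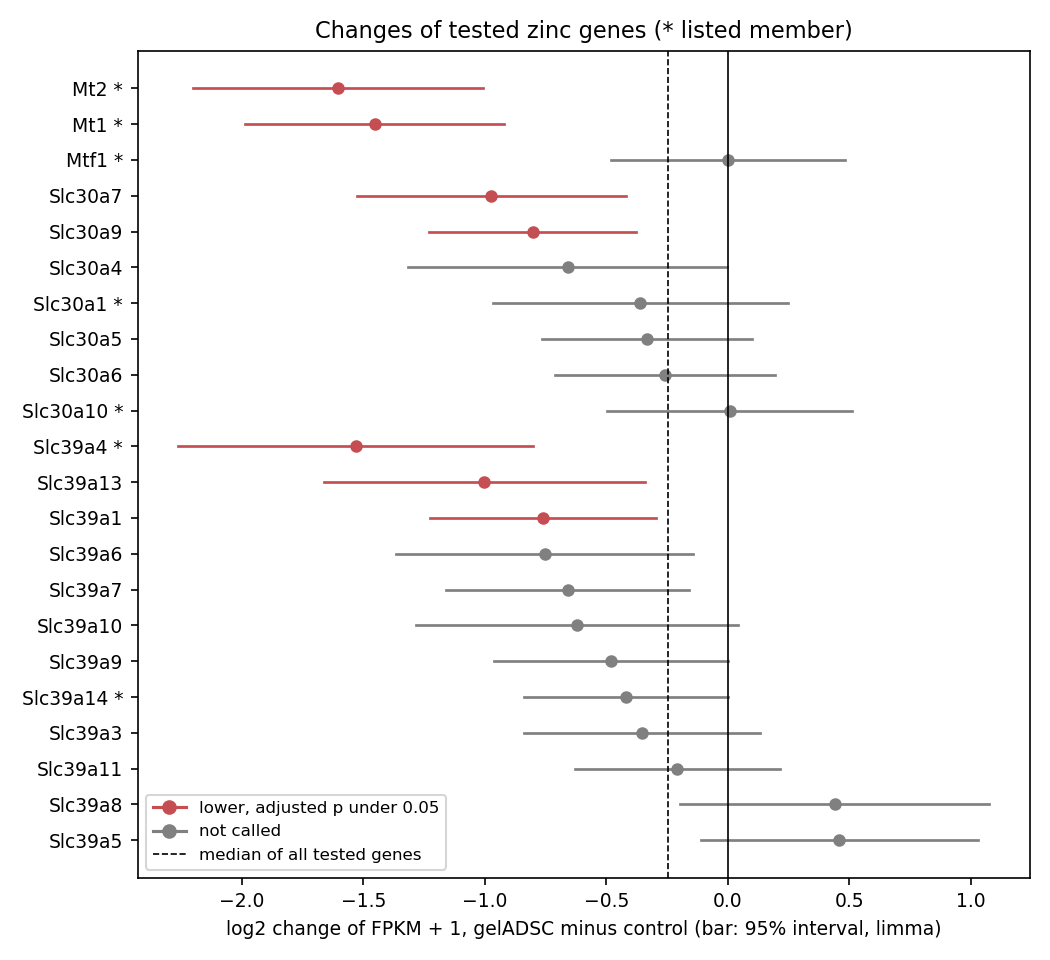
Log2 change of FPKM + 1, gelADSC minus control (x axis), of Mt1, Mt2, Mtf1 and the 19 tested transporters, with 95% intervals from limma and called genes in red. The dashed line marks the median of all tested genes (-0.25), and Mt1, Mt2 and Slc39a4 lie farthest to its left.

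Summed over the family, importer transcripts came to 445 and 347 FPKM in control livers, against 232 and 262 FPKM in gelADSC. Exporter transcripts came to 94.5 and 83.4 FPKM in control livers, against 59.9 and 64.3 FPKM in gelADSC. Both sums were lower in both gelADSC libraries, and the ratio of importers to exporters was 4.70 and 4.16 in the controls and 3.87 and 4.07 in gelADSC. Within the importers, Slc39a1, Slc39a4, Slc39a7 and Slc39a14 made up 83.7% and 83.9% of the sum in the controls and 80.9% and 80.0% in gelADSC. The share of Slc39a4 was 15.3% and 14.4% in the controls against 5.83% and 10.6% in gelADSC. The share of Slc39a14 was 22.9% and 26.4% against 31.6% and 27.0%.

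**Figure D4:**
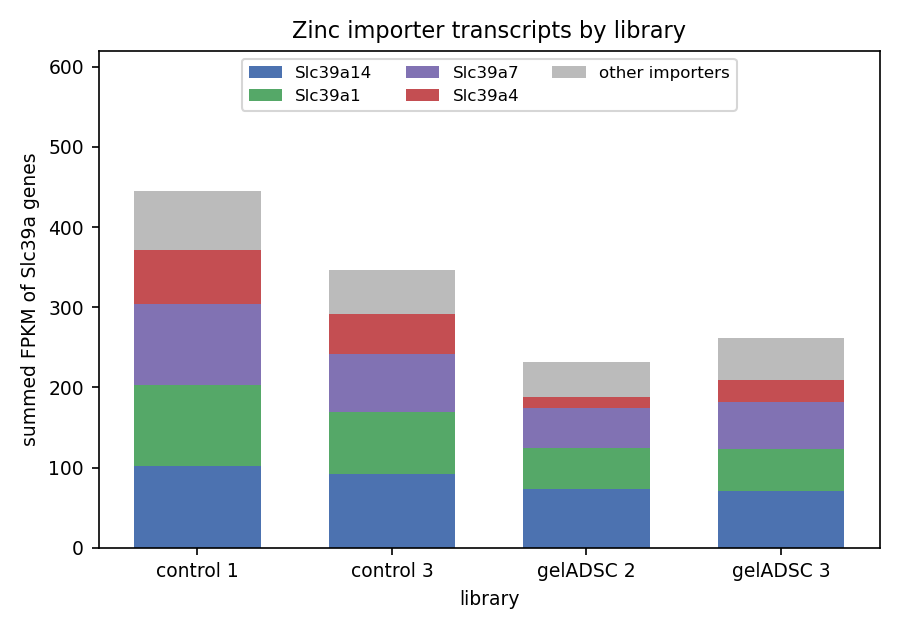
Summed FPKM of the 14 Slc39a importers in each library (y axis, from 0), stacked by gene, with the 10 less abundant importers together in grey. The red Slc39a4 segment is 67.8 and 49.9 FPKM tall for the controls and 13.5 and 27.9 FPKM for gelADSC.

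Among 9 genes listed as responsive to MTF1, which include Mt1, Mt2, Slc30a1 and Slc30a10, the metallothioneins were the only 2 called, and the median change of the 9 was -0.36 (-0.11 relative to all tested genes). Of the glucocorticoid responsive genes, 8 of 12 were called lower and 0 higher, with a median of -1.21 (-0.96 relative to all tested genes). Both gelADSC libraries read below both controls for 10 of the 12 and above for 1, against 50.5% and 19.2% of all tested genes. The largest called changes were those of Cdkn1a, a cell cycle inhibitor (-2.82), Pdk4, a kinase of pyruvate dehydrogenase (-2.22), and Zbtb16, a transcription factor (-1.95). Cdkn1a differed widely between gelADSC libraries 2 and 3, at 5.56 and 40.5 FPKM, against 133 and 101 FPKM in the controls. Of 18 acute phase genes downstream of STAT3, 3 were called higher and 2 lower, with a median of 0.21 (0.46 relative to all tested genes). Beside the counts of these lists, 17.5% of all tested genes were called lower and 6.92% higher. The acute phase genes summed to 44350 and 54968 FPKM in the controls and to 90574 and 46705 FPKM in gelADSC libraries 2 and 3. The part of glucocorticoid or IL-6 signalling in the metallothionein values was not tested.

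Genes for manganese and copper were read beside those for zinc. Of 8 manganese genes, which include Slc30a10, Slc39a8 and Slc39a14, 0 were called in either direction by limma, and the median was -0.22 (0.03 relative to all tested genes). Of 12 tested copper genes 2 were called higher and 2 lower, beside 6.92% and 17.5% of all tested genes. Ccs, the copper chaperone of superoxide dismutase, rose from 63.3 ± 6.43 to 152 ± 18.2 FPKM (SD, n = 2 each, log2 change 1.25), whereas Cp, ceruloplasmin, and Atox1, the chaperone that delivers copper to the ATPases, fell with log2 changes of -0.76 and -0.75. The other called gene, named after its value was seen, was the copper importer Slc31a1 (log2 change 0.66).

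The genes whose profile over the 4 libraries lay nearest to that of Mt1, by Euclidean distance of log2(FPKM + 1) after centring, were Tiparp, Tmem98, F11r, Lmo4 and Vat1, at distances of 0.037 to 0.085. For Mt2 they were Ezr, Tax1bp3, G6pdx, Rbm3 and Btg2, at distances of 0.078 to 0.12. Mt2 stood at rank 72 of 11069 genes by nearness to Mt1, with a distance of 0.24, and Mt1 at rank 49 by nearness to Mt2. Of the other listed genes the nearest to Mt1 was Slc39a4, at rank 1835. With 4 libraries in 2 groups, such nearness mostly states that genes differ between the groups by a like amount.

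The liver label was met by the data: the 10 hepatocyte markers were all tested, with Alb at 22023 to 38330 FPKM over the 4 libraries. Their summed level was 60497 and 73818 FPKM in control livers, against 52752 and 69862 FPKM in gelADSC, with 2 called higher and 0 lower. Markers of other cell types differed between single libraries. The 10 markers of stellate cells and fibroblasts summed to 250 FPKM in control library 1, against 118 to 164 FPKM in the other libraries, and the 10 markers of adipose stem cells and adipocytes summed to 192 FPKM there, against 51.6 to 116 FPKM. A few genes made up most of these sums in control library 1. They were Dcn (113 FPKM) and Ecm1 (80.9 FPKM) in the former list. In the latter they were Fabp4 (98.0 FPKM), Ly6a (41.5 FPKM) and Eng (37.1 FPKM). Adipoq, a defining adipocyte marker, was listed at 0 in control library 3 and gelADSC library 3 and read 0.652 and 0.765 FPKM in the others. Control library 1 is also a library without which the calls of Mt1, Mt2 and Slc39a4 were lost. This was not particular to them, since fewer of all tested genes were called without it, in either direction. The log2 changes without it were -1.29 for Mt1, -1.31 for Mt2 and -1.31 for Slc39a4. The call of Slc39a4 was also lost without control library 3. The part of these markers in the values of the 3 genes was not tested. The bile duct markers summed to 178 and 320 FPKM in control livers, against 64.1 and 56.2 FPKM in gelADSC, and Spp1 and Sox9 among them were called lower. Of the tested markers, 0 of 9 for Kupffer cells were called higher and 1 lower, 2 of 8 for endothelial cells higher and 1 lower, 3 of 10 for stellate cells and fibroblasts higher and 1 lower, and 0 of 6 for adipose cells higher and 2 lower. Of the 7 for neutrophils and monocytes 0 were called by limma, and the 1 tested erythroid marker was called higher. Beside these marker counts, 6.92% of all tested genes were called higher and 17.5% lower. The 8 lymphocyte markers stayed at or below 0.898 FPKM in each library.

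**Figure D5:**
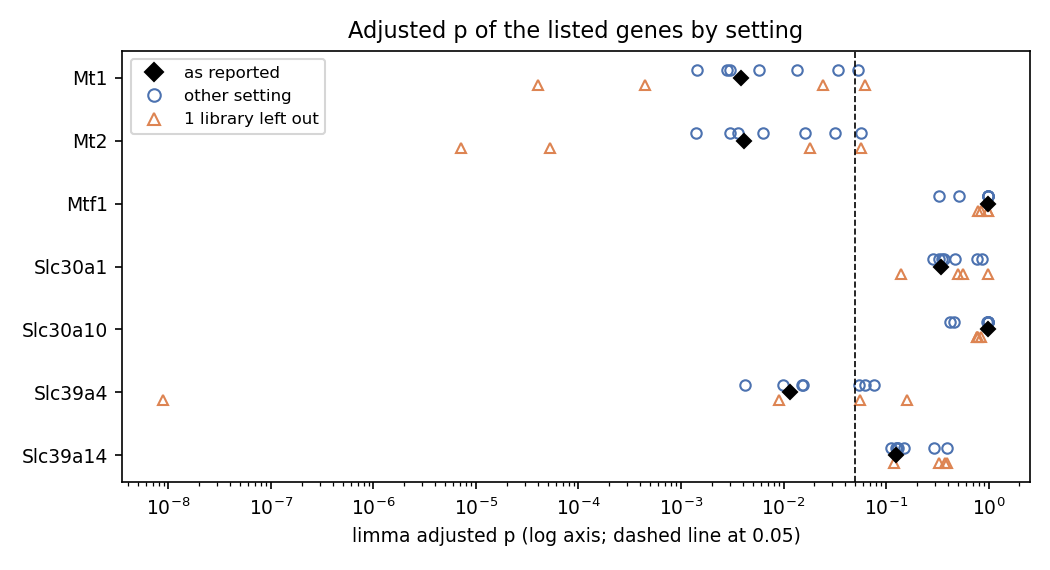
Limma adjusted p (x axis, log scale) of the 7 listed genes as reported (black), under 7 other settings (circles; a gene under the stricter filter has no point there) and with 1 library left out in turn (triangles). Points of Mt1, Mt2 and Slc39a4 fall on both sides of the dashed line at 0.05, and those of the other 4 genes all lie to its right.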

How the data were processed

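Polyadenylated RNA of 4 mouse liver samples was sequenced with a stranded TruSeq kit, per the labels' protocols. The deposited table gives 1 value per gene symbol and library without naming a unit, and the deposited values were taken as FPKM because the submitters' processing notes list Cufflinks 2.2.1 and because low values move in steps that differ from gene to gene. These notes further list Trimmomatic 0.38, TopHat2 2.1.1 and a human build, hg19, although the symbols are of mouse. Annotation and counting step: not given in the sources used here. No gene coordinates are printed beside values. Column numbers match the sample titles only by group. Nothing states that libraries came from separate animals, so p-values measure the spread between these libraries, which may be technical.

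Depth, inferred from those steps and GENCODE M21 exon lengths where a gene has 1 transcript, was roughly 18100000 to 24300000 reads a library. Pearson correlation across tested genes was 0.98 between controls, 0.97 between gelADSC libraries and 0.88 to 0.92 between groups, as a description of the libraries.

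Genes averaging 1 FPKM or more were compared as log2(FPKM + 1) with limma 3.58.1 (R 4.3.3; mean-variance trend, two-sided, Benjamini-Hochberg over all 11070 genes, threshold 0.05), which was tested on simulated data. FPKM are not counts, so no count test was run. Of 176 list symbols 175 were found, 1 by its synonym (Selenow as Sepw1). The genes and lists were chosen with earlier results of these data known, and all 7 listed genes, the transporter families, Mt3, Mt4 and at most the 3 largest called genes of other lists were to be named, marker genes apart. The neighbours of Mt1 and Mt2 were the 5 nearest tested genes. The alternatives were pseudocounts of 0.1 and 5, no filter, a filter of 5 FPKM, median ratio scaling, quantile normalization, limma without the trend and leaving out each library. Promoter windows came from RefSeq (GRCm38.p6).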

Additional observations from a re-analysis of the deposited data

How the results depend on the processing

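Of all tested genes 766 were called higher and 1936 lower (28.3% of the calls higher). The number lower was 730 with no filter (41.8% of the calls higher), 1132 after median ratio scaling (44.1%) and 1000 after quantile normalization (48.2%), and with 1 library left out 303 to 775 were higher and 331 to 1708 lower. Median ratio scaling moved the median over all tested genes from -0.25 to -0.04. The number of listed genes called lower was 3, but 0 with no filter (limma, 4 at an unadjusted p under 0.05) and 0 to 3 with 1 library left out (0 without control library 1, 3 at an unadjusted p under 0.05). The number of transporters called lower was 5, but 1 with no filter or quantile normalization and 2 with median ratio scaling, and 0 to 7 with 1 library left out. The cause of these shifts was not tested, except that no filter raised the number of genes tested to 17563. Of these, 5063 passed at an unadjusted p under 0.05 (limma).

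The calls of Mt1 (log2 change -1.45) and Mt2 (-1.60) were lost with no filter, and that of Slc39a4 with no filter (-1.53), median ratio scaling (-1.30) and quantile normalization (-1.24). With 1 library left out the changes ranged from -1.62 to -1.29 for Mt1, from -1.90 to -1.31 for Mt2, from -2.03 to -1.04 for Slc39a4, from -0.084 to 0.086 for Mtf1, from -0.74 to 0.019 for Slc30a1 and from -0.18 to 0.19 for Slc30a10. The sign turned for Mtf1 at a pseudocount of 5 (-0.000111) and for Slc39a11 under both scalings, median ratio (0.022) and quantile (0.12), none of them called. The changes of Slc39a14 kept their sign under all 11 alternatives. In fits without a gelADSC library the single gelADSC library left is taken to vary as the controls do, and the spread was pooled fully across genes.

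No paired analysis was possible because the columns carry the numbers 1 and 3 for control and 2 and 3 for gelADSC, so the groups share fewer than 2 numbers.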
